A study of Mus musculus with 6 samples.

Results

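Metallothioneins and the genes that set cellular zinc were followed in cultured mouse B cells treated with a Cre protein that deletes Yy1. The group was chosen by gene symbol and with the difference between TAT-CRE and mock cells known, and it holds 9 genes of 9942 tested: the metallothioneins Mt1 and Mt2, the zinc-sensing transcription factor Mtf1, the zinc exporters Slc30a1, Slc30a5 and Slc30a7, and the zinc importers Slc39a6, Slc39a7 and Slc39a10. The array annotation gives them 16 probes, of which 14 passed the filter on dim probes, and every gene kept at least 1 probe. The values of these 9 genes between TAT-CRE and mock cells are therefore a description and carry no test.

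RNA was measured on 3 arrays of TAT-CRE cells and 3 arrays of mock cells, 1 of each from each of 3 mice, as a brightness (intensity) per probe. All cells were splenic follicular B cells, selected by CD23, from C57BL/6 mice with floxed Yy1 (yy1 f/f), and all were cultured for 72 hours with lipopolysaccharide, interleukin 4, OPI and 20% fetal serum. TAT-CRE is a recombinase protein fused to a cell-penetrating peptide, and mock cells of the same spleen received none. The stated aim was to learn the role of Yy1, a zinc finger transcription factor, in class switching. No TAT-CRE cells without floxed Yy1 were analysed here, so the effect of the protein and that of losing Yy1 cannot be told apart.

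Metallothioneins are small proteins rich in cysteine that bind zinc and copper, and their genes are switched on by metals, glucocorticoids and oxidative stress. MTF1 senses free zinc and binds metal response elements in promoters such as those of mouse Mt1, Mt2 and Slc30a1. SLC30 proteins move zinc out of the cytosol, across the cell surface or into organelles, while SLC39 proteins move it into the cytosol. In mouse B cells the importer Slc39a10 is needed for survival and antigen receptor signalling, and loss of SLC39A7, which releases zinc from the endoplasmic reticulum, blocks B cell development in humans and mice.

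The promoters of Mt1, Mt2 and Slc30a1 are shown because they are the classical MTF1 targets among the 9 genes. Each is the RefSeq window of 300 bases on GRCm38.p6, from 250 bases before the start that the table uses to 50 bases after it, and it does not cover other starts. Capitals mark the core of the metal response element, searched on both strands as TGCACNC or TGCGCNC.
Mt1, chr8:94178839-94179138, plus strand: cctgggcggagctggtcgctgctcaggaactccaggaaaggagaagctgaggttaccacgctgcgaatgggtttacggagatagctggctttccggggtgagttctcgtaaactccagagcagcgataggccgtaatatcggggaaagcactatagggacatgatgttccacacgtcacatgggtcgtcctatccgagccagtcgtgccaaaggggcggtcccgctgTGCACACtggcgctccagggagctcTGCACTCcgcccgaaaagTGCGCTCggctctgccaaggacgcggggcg
Mt2, chr8:94172368-94172667, plus strand: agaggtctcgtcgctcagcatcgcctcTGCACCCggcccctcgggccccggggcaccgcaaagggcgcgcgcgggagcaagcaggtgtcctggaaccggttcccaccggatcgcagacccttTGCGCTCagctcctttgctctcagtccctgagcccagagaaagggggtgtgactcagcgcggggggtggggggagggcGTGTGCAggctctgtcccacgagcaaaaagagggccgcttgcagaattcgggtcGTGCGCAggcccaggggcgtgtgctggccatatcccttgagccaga
Slc30a1, chr1:191906531-191906830, plus strand: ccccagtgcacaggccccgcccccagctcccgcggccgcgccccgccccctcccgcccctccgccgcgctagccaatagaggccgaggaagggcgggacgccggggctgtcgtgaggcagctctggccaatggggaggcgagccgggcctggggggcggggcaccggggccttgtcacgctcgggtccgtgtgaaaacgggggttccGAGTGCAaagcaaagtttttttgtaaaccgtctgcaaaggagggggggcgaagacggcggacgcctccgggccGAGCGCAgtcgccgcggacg
The start that the table uses for Mt1 may lie upstream of the main start of its transcript, so its matches and their positions are those of the window shown. The Mt1 window held 3 matches, the Mt2 window 4 and the Slc30a1 window 2. At least 1 match was present in 25.7% of all 32851 windows, at least 2 in 7.11% and at least 4 in 0.517%. Windows were found for 8 of the 9 genes, and Slc39a6 had none in the table. Of the others, Slc30a5 had 1 match, and the windows of Mtf1, Slc30a7, Slc39a7 and Slc39a10 had none. Mt4, Mt3, Mt2 and Mt1 lie in this order on chromosome 8 in the RefSeq gene table, with the long noncoding RNA gene Gm39227 between Mt3 and Mt2.

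The core of the YY1 binding motif, GCCATNTT on both strands, was searched in the same windows. It was present in 6.05% of all windows and at least 2 times in 0.326%. Among the 9 genes it occurred only in the Slc39a7 window, with 2 matches that are in capitals here.
Slc39a7, chr17:34031641-34031940, minus strand: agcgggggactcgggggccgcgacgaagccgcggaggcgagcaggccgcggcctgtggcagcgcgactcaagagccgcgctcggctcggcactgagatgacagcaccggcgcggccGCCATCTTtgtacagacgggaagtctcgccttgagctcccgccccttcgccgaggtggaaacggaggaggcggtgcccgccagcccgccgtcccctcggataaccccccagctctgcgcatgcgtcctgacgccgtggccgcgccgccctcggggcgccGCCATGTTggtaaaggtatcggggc
The antioxidant response element core, TGACNNNGC, had 1 match in each of the Mt2, Slc30a1 and Slc30a5 windows and was present in 12.4% of all windows. None of its matches overlapped one of the other motifs. A match is a description of letters and shows no binding.

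The labelled cell type was checked against its markers. Of 6 B cell marker genes with a probe, 5 were above background (Cd79b, Ms4a1, Cd22, Fcer2a and Cd74), and Cr2 was not. Fcer2a encodes CD23, by which the cells were selected. Background is the 95th percentile of olfactory and vomeronasal receptor probes on the same array, which lay between 169 and 178 on the deposited intensity scale. Of 7 T cell genes, Cd2, Cd4 and Thy1 were above it, and Cd3d, Cd3e, Cd3g and Cd8a were not. Thy1 was bright, from 4246.5 to 6683 on TAT-CRE and from 4871 to 6410 on mock arrays. Cd2 read from 250.5 to 328, and Cd4, from 162 to 191, was above background on only 2 arrays of each group. Of 8 monocyte, macrophage and neutrophil genes, Fcer1g and Adgre1 were above it. The summed intensity of that list ran from 2123 to 2181 in TAT-CRE cells and from 2056 to 2120.1 in mock cells. Only 3 of its 13 probes were above background, so most of that sum is background and nothing is read from it. Hba-a1 and Hbb-bt were above background among 4 erythroid genes. The sums of the B cell, T cell and erythroid lists overlapped between the groups. Yy1 read 153, 140.4 and 134 on the TAT-CRE arrays of mice 1, 2 and 3, and 455, 409 and 439 on the mock arrays. All TAT-CRE values were below background, so on the deposited scale Yy1 was at least 2.49-fold lower. The sources used here do not say where the probe lies relative to the floxed part.

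Mt1 had the largest difference of the 9 genes. Its probe read 8313, 11962 and 8817 on the TAT-CRE arrays of mice 1, 2 and 3, and 4106, 4268 and 3873 on the mock arrays. Every TAT-CRE value lay above every mock value, with means of 9697 ± 1977 in TAT-CRE and 4082 ± 198 in mock cells (SD, n = 3 each). The log2 difference, TAT-CRE minus mock on background-corrected values, was 1.25 (SE 0.18, 95% interval 0.87 to 1.63), which is 2.38-fold. The differences within mice 1, 2 and 3 were 1.03, 1.51 and 1.21, so the mouse with the brightest TAT-CRE array also had the widest difference. Mt1 ranked at 64 from the top of 9942 genes, and 1.75% of genes had a difference of larger size. In RNA of whole cultures, a change in RNA per cell and a change in the share of cells that hold it cannot be told apart.

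Mt2, the metallothionein gene next to Mt1, read close to background. Its probe gave 236, 196 and 210.4 on the TAT-CRE arrays of mice 1, 2 and 3, and 218, 177 and 176 on the mock arrays. All 6 values were above the threshold of their array, but the lowest mock values barely so, and the groups overlapped because mock 1 was brighter than TAT-CRE 2 and TAT-CRE 3. The log2 difference was 0.32 (SE 0.20, 95% interval -0.11 to 0.76), or 0.17 on the deposited intensities, and 38.8% of genes had a larger difference in size. Each mouse had the higher Mt2 value in its TAT-CRE cells, by 0.18, 0.29 and 0.50 in mice 1, 2 and 3. Mt1 exceeded Mt2 in its log2 difference by 0.85, 1.22 and 0.70 in the same mice (mean 0.93 ± 0.27, SD, n = 3), and on the deposited intensities by 0.91, 1.34 and 0.93. Each gene has 1 probe, so neither value could be checked on a second probe, and a dim probe understates a change on the deposited scale. The other metallothionein genes, Mt3 and Mt4, were below background on every array, with values from 112 to 135 for Mt3 and from 131 to 154 for Mt4.

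**Figure D1:**
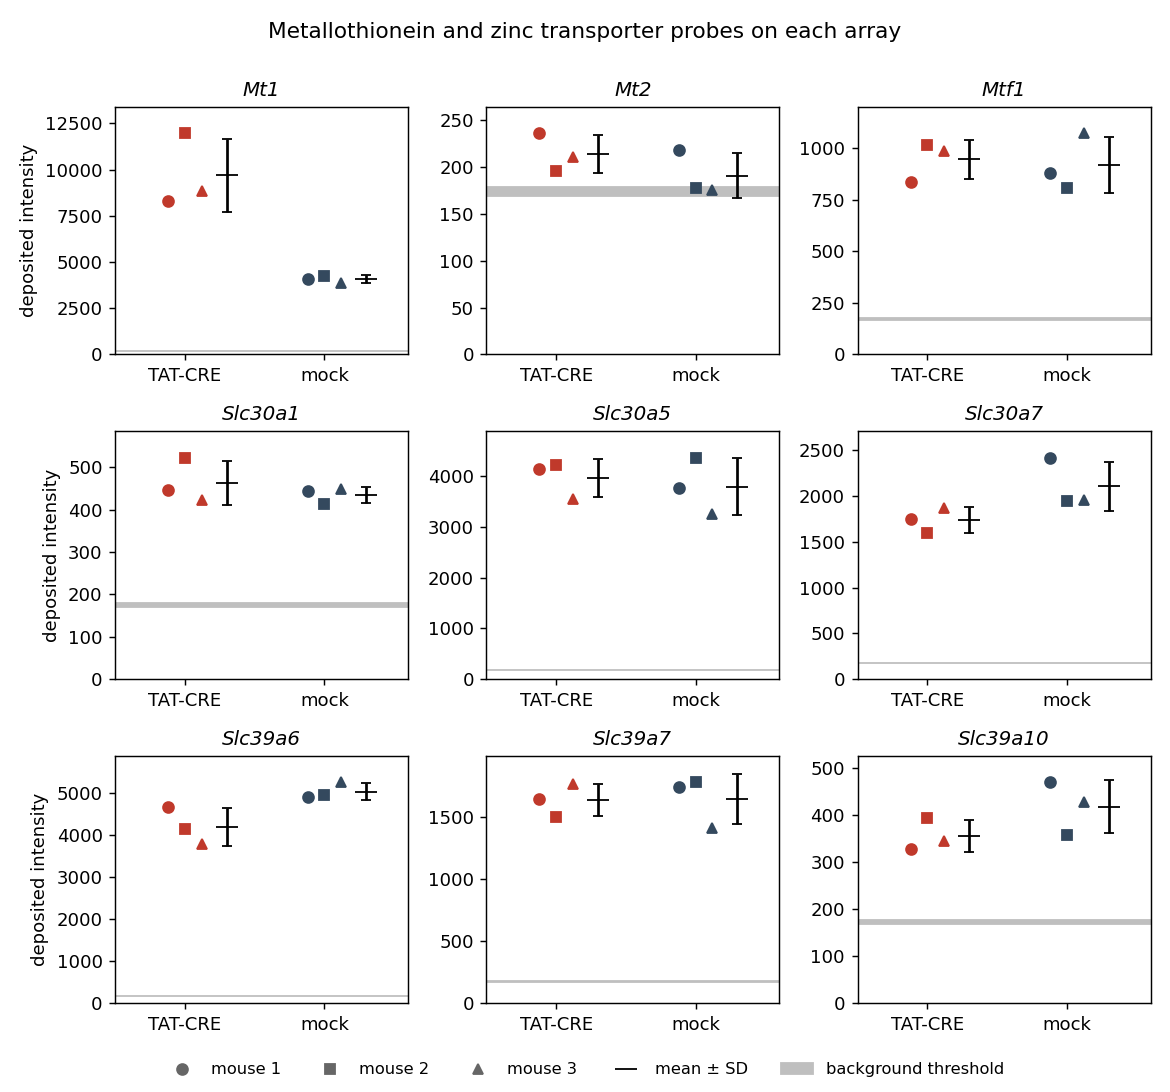
Deposited intensity (linear axis from 0) of the probe used for each of the 9 genes, by group, with 1 point per array, the marker shape giving the mouse, mean ± SD beside the points, and a grey band for the range of background thresholds. Mt1 lies between 8313 and 11962 on TAT-CRE arrays and between 3873 and 4268 on mock arrays, Mt2 lies near the band in both groups, and the other genes show smaller differences.

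Mtf1 RNA did not follow that of Mt1 at the probe used. Its brightest probe, annotated to the cDNA clone AK012676, read 837, 1014 and 988 on the TAT-CRE arrays of mice 1, 2 and 3, and 879, 806.5 and 1073 on the mock arrays. The groups overlapped, and the log2 difference was 0.05 (SE 0.18, 95% interval -0.33 to 0.43). Within mice it was -0.08, 0.37 and -0.13. The remaining Mtf1 probes, annotated to the RefSeq transcript, read between 154 and 208, close to background. The one of them that passed the filter, above background on 3 TAT-CRE arrays and 1 mock array, differed by 0.19. Without mouse 2 the difference of the probe used was -0.11. These are RNA values, and the activity of the MTF1 protein was not measured.

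Among the exporters, Slc30a1, which carries zinc out across the cell surface, read 446, 522 and 423 on the TAT-CRE arrays and 444, 414 and 448 on the mock arrays. The groups overlapped, and TAT-CRE 2 was the only array above the mock range. The log2 difference was 0.11 (SE 0.16, 95% interval -0.25 to 0.46), with 0.01, 0.42 and -0.11 in mice 1, 2 and 3, and without mouse 2 it was -0.05. Slc30a5, which loads zinc into the early secretory pathway, read 4135, 4229.7 and 3546 on the TAT-CRE arrays and 3776, 4364 and 3251 on the mock arrays. Its groups overlapped too, with a difference of 0.07 (95% interval -0.30 to 0.44), and its second probe gave 0.08.

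Slc30a7, another exporter of the Golgi and secretory vesicles, was lower on the TAT-CRE arrays at the probe used. It read 1753, 1591 and 1870.1 on the TAT-CRE arrays of mice 1, 2 and 3, against 2418, 1941 and 1957.5 on the mock arrays. The groups did not overlap, and the log2 difference was -0.29 (SE 0.16, 95% interval -0.64 to 0.07). A second Slc30a7 probe overlapped between the groups, with 1129, 1075.5 and 1086 on TAT-CRE arrays and 1020.5, 1564.5 and 1152 on mock arrays, and a difference of -0.17. The third, annotated to a cDNA clone, was above background on 1 array.

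The importers of this group lay at or below 0, with intervals that all included 0. Of the 7 other importers tested, 5 lay above 0 and 2 below. Slc39a6, an importer of the cell surface, read 4674, 4137 and 3784 on the TAT-CRE arrays of mice 1, 2 and 3, against 4899, 4944.5 and 5258 on the mock arrays. Its groups did not overlap, and the log2 difference was -0.27 (SE 0.16, 95% interval -0.61 to 0.07), with -0.07, -0.26 and -0.48 in mice 1, 2 and 3. Slc39a10, the importer on which B cells depend and which MTF1 holds down in mouse cells, read 329, 394 and 345 on the TAT-CRE arrays and 469.6, 357 and 427 on the mock arrays. The groups overlapped through mouse 2, in which the TAT-CRE array was the brighter, and the difference was -0.30 (SE 0.18, 95% interval -0.69 to 0.10). Slc39a7 read 1641, 1499 and 1760 on the TAT-CRE arrays and 1743, 1777.5 and 1411 on the mock arrays, with overlapping groups and a difference of -0.005 (95% interval -0.37 to 0.36). Its other probes differed by -0.09 and -0.18, and the dimmest was above background on 3 of 6 arrays. The direction of Slc39a7 turned without mock 1, mock 2 or TAT-CRE 2, with differences of 0.04, 0.06 and 0.06.

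Counted together, 1 of the 9 genes was higher and 0 were lower past an adjusted p of 0.05 in limma (Benjamini-Hochberg over all genes), where 7.95% of all genes tested were higher and 8.01% lower. The groups stood apart without overlap for 1 gene that was higher and 2 that were lower, beside 18.3% and 16.6% of all genes (34.9% in either direction). Nothing is read from these shares, since the genes were chosen with this comparison known. The median log2 difference of the 9 genes was 0.05, against 0.02 over all genes tested. Apart from Mt1 and Mt2, the members ran from -0.30 to 0.11, and between 42.6% and 99.0% of all genes had a difference of larger size. The intervals of Mtf1, Slc30a1 and the other transporters of the group all included 0 and none reached the estimate for Mt1, but they allow differences of up to about 0.46 upwards.

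**Figure D2:**
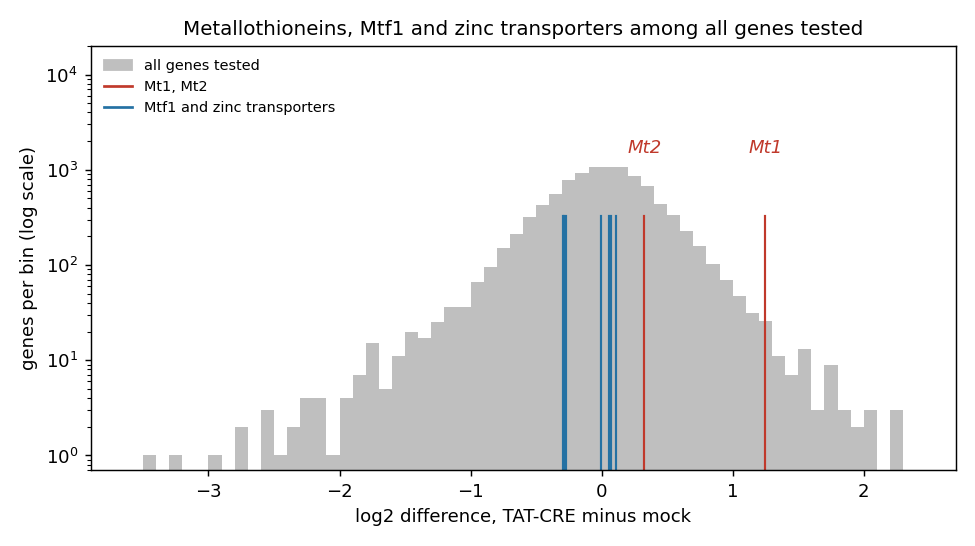
Histogram of the log2 difference, TAT-CRE minus mock, of 9942 genes (grey, genes per bin on a log axis), with vertical lines at the 9 genes. Mt1 lies in the right tail at 1.25, Mt2 at 0.32, and Mtf1 and the zinc transporters between -0.30 and 0.11.

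The zinc transporters outside this group were taken as the rest of their families. They are what was left after the 9 genes were chosen with this comparison known. The filter also let Slc30a10 in through its mock arrays alone, so the set is not free of selection. Of 17 with a probe, 10 passed the filter on dim probes. Slc39a8 rose, none fell, and the other 9 did not pass, beside 7.95% higher and 8.01% lower among all genes, so the count is near that background. The median log2 difference was 0.17, against 0.02 over all genes. Slc39a8 encodes ZIP8, which imports zinc and manganese at the cell surface. Its brighter probe read 304.5, 317.5 and 362 on the TAT-CRE arrays of mice 1, 2 and 3, against 222, 169 and 210.5 on the mock arrays. Every TAT-CRE value lay above every mock value, and mock 2 was below background. The log2 difference was 1.16 (SE 0.21, 95% interval 0.70 to 1.61, limma adjusted p = 0.00331), and 0.72 on the deposited intensities. A second Slc39a8 probe, at 248, 236 and 264 on TAT-CRE and 159, 232 and 222 on mock arrays, also stood apart but did not pass (limma adjusted p over probes = 0.166). Without both arrays of mouse 3 the Slc39a8 call was lost (limma adjusted p = 0.0631).

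Of the other importers, Slc39a13, which acts in the secretory pathway, had probes that went opposite ways. The brighter read 361, 369.8 and 369 on the TAT-CRE arrays and 248, 354 and 285 on the mock arrays, a difference of 0.47 that did not pass (limma adjusted p = 0.127, and 0.0222 without mock 2). The dimmer read 161.4, 159.9 and 179 on the TAT-CRE arrays against 211, 192 and 213 on the mock arrays, a log2 difference of -0.61. It was above background on 3 mock arrays and 1 TAT-CRE array, so its mock arrays met the filter. Its difference is therefore given with no test. With the brighter probe uncalled and the dimmer one selected in this way, the direction of Slc39a13 is uncertain. Slc39a9 differed by 0.39, Slc39a1 by 0.23, Slc39a11 by 0.10, Slc39a3 by -0.15 and Slc39a4 by -0.16, and none of these passed (limma adjusted p from 0.177 to 0.732).

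Of the other exporters, Slc30a10, known for carrying manganese in human and mouse cells, had a probe near background, which passed the filter through its mock arrays alone. It read 165, 143 and 144 on the TAT-CRE arrays, all below background, against 189, 170.4 and 174 on the mock arrays. The log2 difference was -0.57, a description with no test, since a probe that enters through 1 group had to differ. Set against background, the deposited values make it at least 1.02-fold lower, so little of its size is measured. Slc30a6, which forms a transporter together with Slc30a5, differed by 0.26 and the vesicular exporter Slc30a4 by -0.01, and neither passed (limma adjusted p = 0.361 and 0.984).

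**Figure D3:**
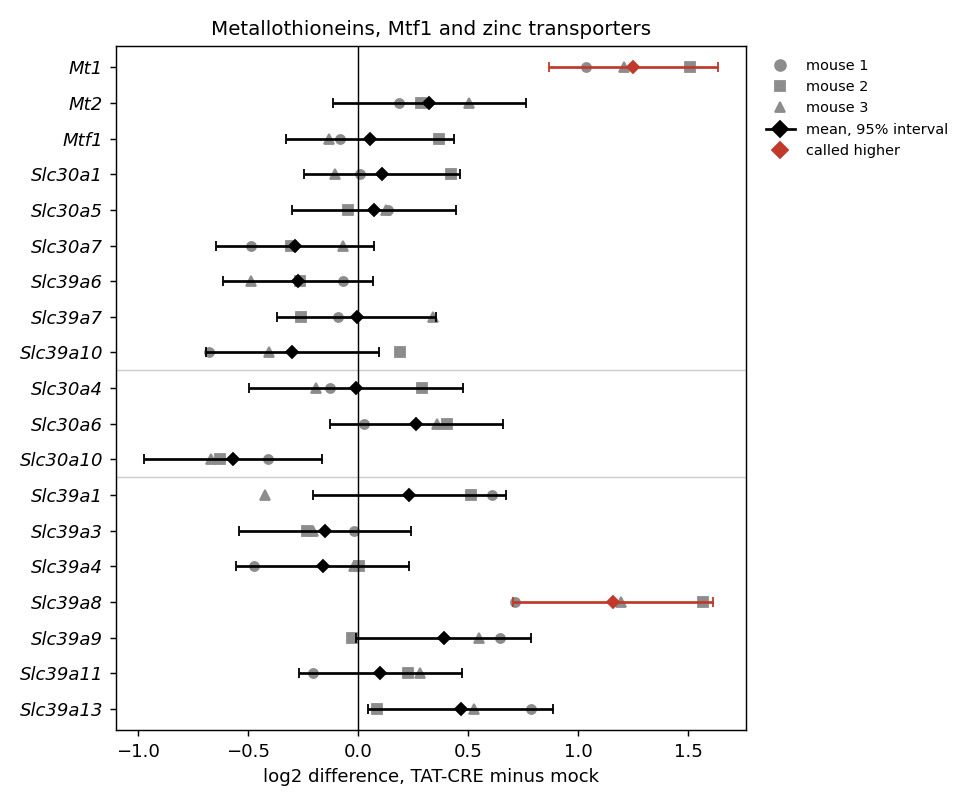
Log2 difference, TAT-CRE minus mock, of the 9 genes (top block), the other exporters (middle) and the other importers (bottom), with grey markers for the 3 mice and diamonds for the mean with its 95% interval. Mt1 at 1.25 and Slc39a8 at 1.16 stand to the right, and most other intervals include 0.

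Genes tied to MTF1 or to metals by earlier work in mouse or human cells numbered 6 among those tested. Of these, 2 were lower and none was higher past the threshold, beside 8.01% lower and 7.95% higher among all genes, and the median log2 difference was -0.35. The 2 were Hmox1 and Selenow, and Hmox1 passed the filter through its mock arrays alone, so it had to differ and its call supports nothing. The count and the median both include Hmox1, so nothing is read from either, and Selenow was the only other call. Hmox1, the haem oxygenase induced by metals and oxidants, read 130.3, 143 and 151 on the TAT-CRE arrays, all below background, against 198, 294.5 and 209.9 on the mock arrays. On the deposited scale Hmox1 was at least 1.32-fold lower, given with no test. Selenow, which encodes a small selenoprotein, read 1794, 1518 and 1889.7 on the TAT-CRE arrays against 2597, 2669 and 2434 on the mock arrays, and its log2 value fell by 0.60 (SE 0.16, limma adjusted p = 0.0252). The Selenow call was lost without TAT-CRE 1, 2 or 3 (limma adjusted p = 0.0726, 0.132 and 0.0563). Ndrg1 differed by -0.47, Gclc, a subunit of the first enzyme of glutathione synthesis, by -0.23, Selenoh by -0.03 and Csrp1 by 0.06, and these did not pass (limma adjusted p from 0.257 to 0.928).

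Among 15 tested genes of copper and iron handling, 2 rose and 1 fell, beside 7.95% higher and 8.01% lower among all genes, and the median log2 difference was -0.06. With so few genes the count is near that background. Those that rose were the copper chaperones Atox1, which hands copper to pumps of the secretory pathway, and Cox17, which hands it to cytochrome oxidase. Atox1 read 3549.9, 2823 and 2897 on the TAT-CRE arrays of mice 1, 2 and 3, against 1456.5, 1867.5 and 2290.4 on the mock arrays, a log2 difference of 0.77 (SE 0.20, limma adjusted p = 0.0208). The groups stood apart, and the difference was widest in mouse 1 at 1.34 and narrowest in mouse 3 at 0.35. Cox17 read 6159.8, 5504 and 6131 on the TAT-CRE arrays against 4243, 4234.5 and 3878.5 on the mock arrays, a difference of 0.54 (SE 0.15, limma adjusted p = 0.0328). A dim second Cox17 probe, which did not pass the filter, was below background on all TAT-CRE arrays and above it on 2 mock arrays. It went the other way, by -0.12 in log2 on the deposited intensities. The copper and zinc enzyme gene Sod1 differed by 0.44 in the same direction in all 3 mice and did not pass (limma adjusted p = 0.0675), and Ccs, the chaperone that loads it, by -0.06.

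The gene that fell was Tfrc, the transferrin receptor by which cells take up iron. It read 6124, 6029 and 6303 on the TAT-CRE arrays against 9701, 8499 and 10751 on the mock arrays. The groups stood far apart, with a difference of -0.65 (SE 0.16, limma adjusted p = 0.0163), and its second probe, read in the same direction in each mouse, also passed (limma adjusted p over probes = 0.0320). The ferritin genes Fth1 and Ftl1, whose proteins store iron, differed by -0.23 and -0.14 and did not pass (limma adjusted p = 0.398 and 0.635). These calls were lost with fewer arrays while the differences stayed in the same direction, from 0.49 to 0.98 for Atox1, 0.47 to 0.61 for Cox17, -0.74 to -0.57 for Tfrc and -0.71 to -0.47 for Selenow. Atox1 lost its call without TAT-CRE 1 or 3 (limma adjusted p = 0.0959 and 0.0548), Cox17 without TAT-CRE 1, 2 or 3 or mock 3 (up to 0.124), and Tfrc without the same arrays (up to 0.0709). When a mouse was left out, limma adjusted p reached 0.160 for Atox1, 0.245 for Cox17, 0.163 for Tfrc and 0.139 for Selenow. With no filter on dim probes, which raises the number of genes adjusted over, Atox1, Cox17, Tfrc and Selenow lost theirs (0.0710, 0.114, 0.0653 and 0.0917).

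**Figure D4:**
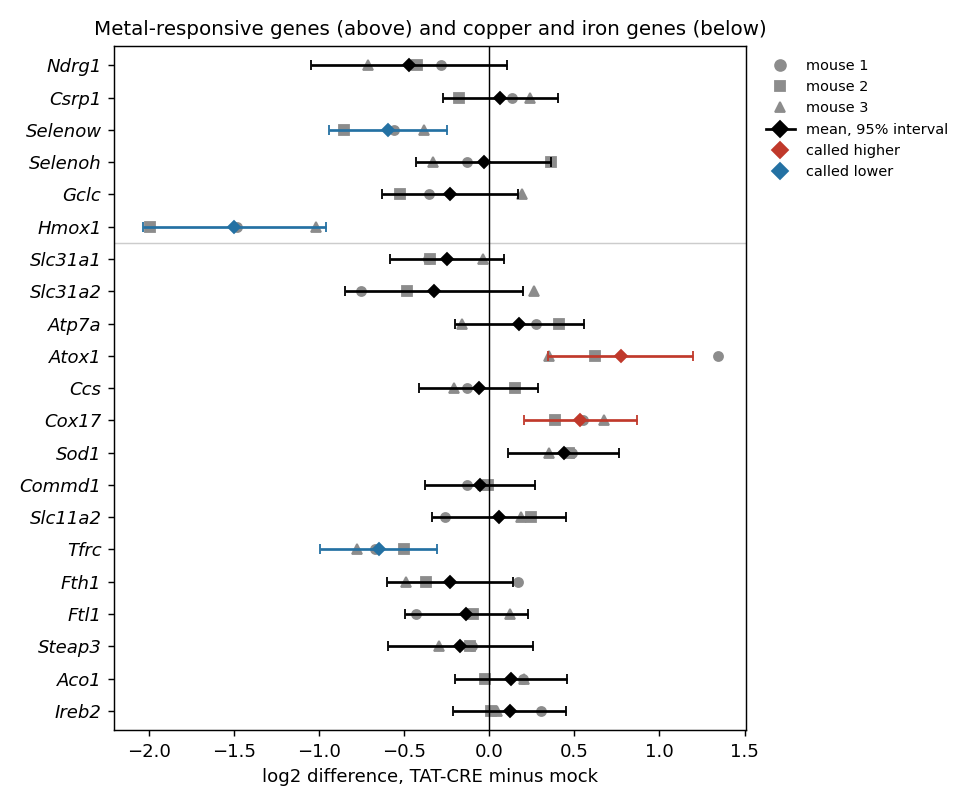
Log2 difference, TAT-CRE minus mock, of metal-responsive genes (upper block) and of copper and iron genes (lower block), with grey markers for the 3 mice and diamonds for the mean with its 95% interval, red where the gene was higher and blue where it was lower past an adjusted p of 0.05. Atox1 at 0.77 and Cox17 at 0.54 lie to the right, and Hmox1, Tfrc and Selenow to the left.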

How the data were processed

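Each sample was hybridized to an Illumina BeadChip array (6 in all). The deposited table holds linear intensities of 45281 probes, made with GenomeStudio 1.8 per the submitters' processing notes. Sorted, the deposited intensities of the arrays lie within 2.1 of each other, so they had been quantile normalized by the authors, and the array medians of 161.4 to 161.5 show no background subtraction. A second table has 12 columns with no link to a sample's labels, which were left out.

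In limma 3.58.1 (R 4.3.3), intensities were corrected by normexp (offset 16), quantile normalized again and put on the log2 scale. Probes above the 95th percentile of 1504 olfactory and vomeronasal receptor probes on at least 3 arrays were kept. Probes were named from GEO's platform annotation (34885 with 1 gene, 18 with several, 10378 with none), and 34807 matched a RefSeq gene by Entrez identifier. Where a gene had several probes, the one with the highest mean was used. TAT-CRE minus mock was fitted with lmFit and eBayes without the mouse, two-sided, with Benjamini-Hochberg adjustment over 9942 genes, after a test of the procedure on simulated data. Of these, 790 were higher and 796 lower. The number of arrays limits the precision. The SE, intervals and adjusted p values come from fits without the mouse unless the mouse block is named. The pairing of arrays thus enters only the differences within mice and the fit with that block.

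The labels give same-numbered arrays the same mouse. Their deviations from the group means correlated at 0.104, 0.0349 and 0.0356 across genes in mice 1, 2 and 3. The 9 genes and all gene lists were chosen with earlier results of these data known. The genes named are the 9, Yy1, all tested genes of the zinc, metallothionein and metal-responsive lists, genes of other lists past the threshold, and the 5 genes nearest to each of Mt1 and Mt2. Sod1, Ccs, Fth1, Ftl1, the uncalled glucocorticoid and stress genes and genes named among the markers were added after their values were seen. Alternatives covered background correction, normalization, filter, mouse block, variance model, mean of probes, threshold, and each array and mouse left out. Figures were drawn with matplotlib 3.10.9.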

Additional observations from a re-analysis of the deposited data

How the results depend on the processing

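The log2 difference of Mt1 ran from 1.09 to 1.36 over the alternatives, given as a description since the gene was chosen with it known. The counts over all genes were 370 higher and 391 lower with no filter on dim probes, which adjusts over 19057 genes. Leaving out an array or a mouse, which leaves fewer samples, gave 175 to 763 higher and 185 to 814 lower. With the mouse as a replicate block, 873 genes were higher and 887 lower, and 1 other zinc transporter, Slc30a10, was lower; it passed the filter through its mock arrays alone, so nothing is read from this. The same count of 1 lower was found with the mean of a gene's probes and at an adjusted p under 0.1, and 0 to 1 when an array or mouse was left out. The count of other zinc transporters that were higher was 0 among probes above background on all 6 arrays, where Slc39a8 was not tested, and 0 to 2 when an array or mouse was left out. The excess of Mt1 over Mt2 was 0.65 to 1.15 when an array or mouse was left out, lowest without TAT-CRE 2. Mt2, Slc30a7, Slc39a6 and Slc39a10 kept their direction in all 17 alternatives run on them. Mtf1, Slc30a1, Slc30a5 and Slc39a7 changed sign in some. For Mt2, the second Mtf1 probe, the dimmer Slc39a13 probe, Slc30a10 and Hmox1, signal near background limits what can be measured.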

Other observations

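Genes induced by glucocorticoids and stress, to which metallothionein genes also respond, were mostly without a call. Of 9 tested, Klf9, a glucocorticoid-induced transcription factor, was the gene that fell, by 0.56 in log2 (SE 0.16, limma adjusted p = 0.0349) and none rose, beside 8.01% lower and 7.95% higher among all genes, so the count is near that background. Klf9 read 405, 424 and 379.5 on the TAT-CRE arrays against 621, 523 and 513 on the mock arrays. Its call was lost without any array other than mock 2 (limma adjusted p up to 0.141, and up to 0.187 with a mouse left out). The other 8, named after their values were seen, did not pass (limma adjusted p from 0.0539 to 0.963). Tsc22d3, Gadd45b, Ddit4 and Per1 differed by -0.59, -0.50, -0.08 and -0.03. Zfp36, Sgk1, Fkbp5 and Dusp1 differed by 0.34, 0.19, 0.04 and 0.02. A second Per1 probe was lower without overlap, at -0.44 (limma adjusted p over probes = 0.0871), and a second Tsc22d3 probe differed by -0.07. With the mouse as a block Tsc22d3 passed (limma adjusted p = 0.0484). Among the markers of other cells, Fcer1g, a chain of Fc receptors in myeloid cells, fell by 0.68 (limma adjusted p = 0.0237). That call was lost without TAT-CRE 1, TAT-CRE 3, mock 2 or mock 3 (limma adjusted p up to 0.111, and up to 0.215 with a mouse left out). Adgre1, the other tested gene of the myeloid list, went the other way by 0.32 and its groups overlapped. The brightest Lyz2 probe and the probes of S100a8 and S100a9 were higher on every TAT-CRE array than on any mock array. They were at or below background on all arrays but TAT-CRE 1 for Lyz2, and none passed the filter. The other Lyz2 probes and those of Itgam, Cd14 and Csf1r, also too dim for the filter, overlapped between the groups. Nothing is read from these dim probes. The brightest Lyz2 probe read 205.4, 170 and 167.3 on the TAT-CRE arrays against 146.3, 155.7 and 137.1 on the mock arrays. With no filter on dim probes neither Klf9 nor Fcer1g passed (limma adjusted p = 0.115 and 0.0829). The part of other cells in the results was not tested.

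The genes whose differences in the 3 mice lay nearest to those of Mt1, by root mean square over the mice among 9933 genes, were the ubiquitin ligase gene Lrsam1 (0.03), the receptor phosphatase gene Ptprv (0.09), the ephrin gene Efnb1 (0.10) and the histone H3 genes H3c4 (0.11) and H3c7 (0.12). Histone H3 genes are close copies, so which of them a probe reads is uncertain. Ptprv differed by 0.95, 1.40 and 1.26 in mice 1, 2 and 3, beside 1.03, 1.51 and 1.21 for Mt1. Nearest to Mt2 were Emilin1 (0.03), Creld1 (0.03), Dnajc1 (0.04), Sbno2 (0.05) and Mterf4 (0.05). These are descriptions over 3 mice and carry no test. The likeness was read at the main settings only and depends on the processing. Over the alternatives the lowest differences were 0.94 for Lrsam1, 0.79 for Ptprv, 0.80 for Efnb1, 1.10 for H3c4 and 1.03 for H3c7, beside 1.09 for Mt1. They were 0.14 for Emilin1, 0.24 for Creld1, 0.18 for Dnajc1, -0.009 for Sbno2 and 0.22 for Mterf4, beside 0.17 for Mt2.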
